A study of Mus musculus with 7 samples.

Results

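The genes described here were 46 genes of the integrated stress response and the unfolded protein response, given by symbol and matched through GENCODE mouse identifiers to 1 row each of the deposited table. All 46 were among the 14851 genes of that table, and all 46 were among the 12545 genes that could be tested. The ATF4 arm held 23 of them, *Atf4* itself with 22 genes known as its targets or partners, and the endoplasmic reticulum (ER) arm held the other 23, with 14 chaperones, 5 genes of ER-associated degradation (ERAD), 3 sensors and *Xbp1*. The livers were those of 4 *Albumin-Cre; p53* FL/FL animals (FL), whose floxed *Trp53* is deleted by a Cre recombinase under the *Albumin* promoter, and of 3 *Albumin-Cre; p53* WT animals (WT) with the same Cre and intact *Trp53*. All were male C57BL/6J mice of about 70 days that had received a single intraperitoneal injection of CCl4, a solvent turned into radicals by hepatocyte enzymes (1 mL/kg, 20% by volume in corn oil), 8 h before sampling. The *Albumin* promoter is active in hepatocytes, and which other liver cells keep *Trp53* was not measured here. Some mice of both genotypes also carried an inducible red fluorescent reporter, without a statement of which ones. No untreated liver was analysed here, so the values compare genotypes after injury and carry no measure of induction by CCl4.

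The integrated stress response begins with kinases that phosphorylate the translation factor eIF2 alpha, which lowers protein synthesis while allowing translation of the transcription factor ATF4. ATF4 then activates genes for amino acid synthesis, uptake and tRNA charging, together with feedback regulators and secreted hormones. The unfolded protein response starts from sensors in the ER membrane: PERK (*Eif2ak3*) phosphorylates eIF2 alpha and so feeds ATF4, whereas IRE1 (*Ern1*) and ATF6 act through XBP1 and cleaved ATF6 on chaperone and ERAD genes. Hepatocytes secrete most plasma proteins and carry a large ER, and CCl4 is activated on the ER membrane by cytochrome P450.

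Both arms carry known promoter elements, and the stretches holding them are shown for the members on which the results turn. RefSeq promoters (GRCm38.p6, 250 bases before to 50 bases after the gene's start) were given for 41 of the 46 genes, all but *Wars*, *Slc7a5*, *Manf*, *Atf6* and *Hyou1*. The ER stress response element (ERSE, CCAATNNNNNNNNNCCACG) is bound by ATF6 with the CCAAT factor NF-Y, ERSE-II is ATTGGNCCACG, and the CEBP-ATF response element (CARE, here TGATGNAA) is bound by ATF4 with CEBP proteins. Each was searched on both strands, so that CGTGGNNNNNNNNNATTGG, CGTGGNCCAAT and TTNCATCA are the same elements read from the other strand, and 0 matches overlapped another. Capitals mark the matched element, read 5′ to 3′ along the strand of the gene.
Hspa5 (ERSE, chr2:34772020-34772048, + strand): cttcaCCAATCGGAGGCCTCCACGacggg
Creld2 (ERSE, chr15:88819500-88819558, + strand): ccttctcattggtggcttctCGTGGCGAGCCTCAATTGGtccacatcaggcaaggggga
Derl3 (ERSE, chr10:75893222-75893280, + strand): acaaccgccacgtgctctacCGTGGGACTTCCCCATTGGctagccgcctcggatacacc
Calr (ERSE, chr8:84847055-84847113, - strand): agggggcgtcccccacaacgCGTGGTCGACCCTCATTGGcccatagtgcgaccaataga
Herpud1 (CARE and ERSE-II, chr8:94386297-94386407, + strand): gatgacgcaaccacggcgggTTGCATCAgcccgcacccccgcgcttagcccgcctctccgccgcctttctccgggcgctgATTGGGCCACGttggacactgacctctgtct
Fgf21 (CARE, chr7:45615602-45615649, - strand): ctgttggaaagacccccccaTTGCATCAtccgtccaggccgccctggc
Chac1 (CARE, chr2:119351029-119351076, + strand): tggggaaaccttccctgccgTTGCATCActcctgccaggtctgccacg
Asns (CARE, chr6:7693214-7693243, - strand): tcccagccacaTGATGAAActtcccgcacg
Nupr1 (CARE, chr7:126625562-126625591, - strand): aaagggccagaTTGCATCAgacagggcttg

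In the GENCODE vM21 annotation of the same genome, the stretches of *Creld2*, *Derl3*, *Calr*, *Fgf21* and *Chac1* lie outside any gene, and that of *Herpud1* lies within the gene body of *Gm15890* but in no exon. Those of *Hspa5*, *Asns* and *Nupr1* lie in an exon of their own gene, since GENCODE holds transcripts that begin upstream of the RefSeq start, and were kept to 30 bases or fewer. The ERSE occurred in 9 members, all of the ER arm (*Calr*, *Canx*, *Creld2*, *Derl3*, *Dnajc3*, *Hsp90b1*, *Hspa5*, *Pdia6* and *Syvn1*), which is 9 of its 20 genes with a promoter, and in 37 of all 27025 genes (0.137%). ERSE-II was present in *Dnajb11* and *Herpud1*, and in 12 of all genes (0.0444%). The CARE occurred in 8 of the 21 ATF4-arm genes with a promoter (*Aars*, *Asns*, *Chac1*, *Fgf21*, *Gars*, *Nupr1*, *Trib3* and *Vldlr*) and in *Herpud1*, against 1219 of all genes (4.51%). The cyclic AMP response element (TGACGTCA) was found in *Ppp1r15a* only among members (2.03% of all genes), and the XBP1 element searched as TGACGTGG in 0 members (0.714% of all genes). A match describes letters in this window and is no evidence of binding.

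The deposited values were read counts per gene divided by the authors' size factors and rounded, called normalised counts here, and their totals of 15851380 to 16554427 in FL and 14123213 to 15538815 in WT livers reflect that scaling and not the depth. *Trp53* had 110 to 217 normalised counts in FL and 688 to 876 in WT livers, so the livers matched their labels. The source names of the WT mice share 1 prefix and those of the FL mice carry 2 others, so that source and genotype cannot be told apart. FL replicate 3 and WT replicate 2 stood apart from the remaining livers in many genes. Of all genes tested, 25.8% had these 2 livers as the lowest of the 7 and 23.9% had them as the highest, and log2 fold changes of the named genes and counts over the gene lists are therefore given with and without them. In whole tissue, fewer cells of a type and less RNA per cell cannot be told apart.

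Levels compared between genes were taken per kilobase of exon. *Hspa5*, the luminal Hsp70 chaperone BiP, stood highest of the 46 genes with a mean of 22690 normalised counts per kilobase over the 7 livers. Next came *Hsp90b1* (5427), the ER Hsp90 GRP94, *Calr* (5126), the lectin chaperone calreticulin, and *Creld2* (4022), a secreted ER stress protein. *Atf5*, a transcription factor of the ATF4 family, had 3762 per kilobase and was the highest of the ATF4 arm, above *Atf4* itself (1825). The lowest were *Phgdh* (6.78), which starts serine synthesis, *Vldlr* (9.24), a lipoprotein receptor, and *Slc7a1* (29.0), a transporter of basic amino acids. *Hspa5* alone made up 0.198% to 0.903% of all normalised counts of a liver.

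Loss of hepatocyte p53 was compared with its presence in limma on log2(normalised count + 1), with p-values adjusted by the Benjamini-Hochberg method over all genes tested, and a positive log2 fold change is higher in FL livers. Of the 46 genes, 0 had an adjusted p-value under 0.05 in limma, where 0.0159% of all genes did, and 1, *Fgf21*, had an unadjusted p-value under 0.05, where 3.2% of all genes did. The paper called *Trp53*, *Eda2r*, *Ccng1*, *Abcb1a*, *Zmat3* and *Cyp2a5* different between these genotypes with DESeq2. In limma here, only *Trp53* and *Eda2r* of these passed, while adjusted p was 0.25 for *Ccng1* and 0.999 for the others. A count of 0 in this fit can therefore miss differences. The genotypes were fully apart for 0 of the 46 genes, while 2.77% of all genes had every FL liver above every WT liver and 1.98% had every FL liver below. Log2 fold changes ran from -0.45 to 0.97, with 31 above and 15 below 0 and a median of 0.09, beside 0.01 for all genes. The median spread within a genotype (SD of log2 values) was 0.48 for the 46 genes and 0.26 for all genes, and for 43 of the 46 genes it was above the size of the log2 fold change. The groups of 4 and 3 livers can give an exact permutation p of 0.0286 at the least.

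**Figure D1:**
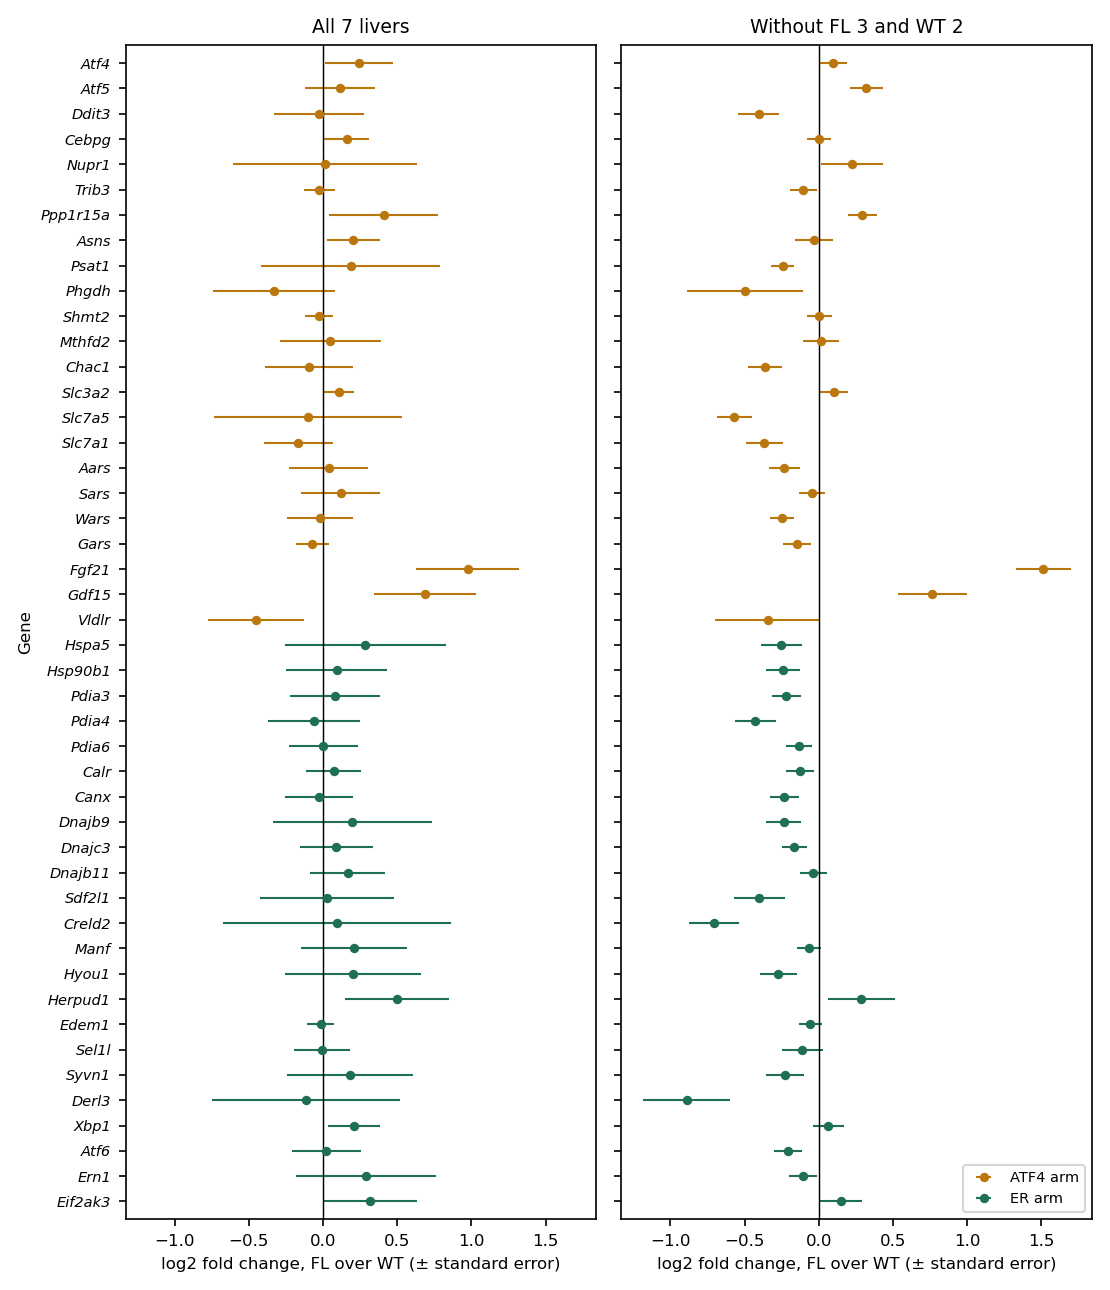
Log2 fold change of each gene, FL over WT, with its standard error from limma, for all 7 livers (left) and without FL replicate 3 and WT replicate 2 (right), with ATF4-arm genes in orange and ER-arm genes in green. With all livers the ER chaperones lie near 0 with wide errors, and without the 2 livers all 14 lie below 0, whereas *Fgf21* lies at 0.97 and 1.51.

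The secreted products *Fgf21* and *Gdf15* of the ATF4 arm had the largest log2 fold changes of the 46 genes. *Fgf21*, a liver hormone of fasting and amino acid shortage (chromosome 7, 45613886 to 45615490), was measured, in replicate order here and below, at 815, 897, 544 and 586 normalised counts for FL and at 304, 632 and 229 for WT livers. WT replicate 2 lay inside the FL range, and the other WT livers lay below all FL livers. The log2 fold change was 0.97 ± 0.35 (± standard error, here and below), with p = 0.0226 and adjusted p = 0.999 in limma, and the exact two-sided permutation test gave p = 0.114. Without FL replicate 3 and WT replicate 2 it was 1.51 ± 0.19 (adjusted p = 0.0407 in limma), the only one of the 46 genes past the threshold there, where 0.0487% of all genes passed. These 2 livers were left out with results known, and WT replicate 2 was the WT liver inside the FL range. Passing there is therefore a description and no separate support for a genotype difference. Leaving out 1 liver at a time gave log2 fold changes of 0.66 (without WT replicate 3) to 1.39 (without WT replicate 2), with no adjusted p-value of limma under 0.481.

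*Gdf15*, a stress hormone that lowers food intake (chromosome 8, 70629393 to 70632456), had 633, 888, 417 and 1107 normalised counts in FL livers and 406, 345 and 621 in WT livers. FL replicate 3 lay inside the WT range, and the other FL livers lay above all WT livers. The log2 fold change of 0.69 ± 0.34 had a limma p of 0.0821 and an exact permutation p of 0.114, and was 0.76 without FL replicate 3 and WT replicate 2. *Vldlr*, with 137, 65, 79 and 50 in FL and 103, 125 and 92 in WT livers, had the lowest log2 fold change of the 46 genes (-0.45 ± 0.33, exact permutation p = 0.257), and FL replicate 1 was the highest of all livers. Its value was -0.34 without FL replicate 3 and WT replicate 2, and leaving out 1 liver gave -0.73 (without FL replicate 1) to -0.25 (without FL replicate 4).

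The regulators of the integrated stress response gave log2 fold changes between -0.03 and 0.41, 5 of 7 above 0. *Atf4* (chromosome 15, 80255184 to 80257541) had 4371, 5123, 3586 and 5222 normalised counts in FL and 4635, 2667 and 4524 in WT livers. Its log2 fold change of 0.24 ± 0.23 (exact permutation p = 0.486) was -0.017 without WT replicate 2 and 0.09 without FL replicate 3 as well. *Ddit3*, the transcription factor CHOP, had 2363, 2253, 2269 and 2742 in FL and 2773, 1385 and 3779 in WT livers (log2 fold change -0.02, or -0.41 without the 2 livers that stood apart). The WT livers alone spanned a wider range of *Ddit3* than all FL livers, and its exons overlap those of another identifier of the same symbol, *Gm4189* and *Mars*. *Ppp1r15a* (GADD34), which directs removal of phosphate from eIF2 alpha, had 2594, 2976, 1378 and 3039 in FL and 2182, 1063 and 2496 in WT livers, with 0.41 ± 0.37 as its log2 fold change. Leaving out WT replicate 2 took it to 0.03, leaving out FL replicate 3 to 0.67 and leaving out both to 0.29. For this gene FL replicate 3 and WT replicate 2 were the 2 lowest livers, and the remaining FL livers lay above the remaining WT livers. *Cebpg*, a dimer partner of ATF4, had 1938, 1893, 1717 and 1803 in FL and 1861, 1267 and 1885 in WT livers (log2 fold change 0.16, or 0.0032 without both).

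Another pair of regulators ran the other way across livers. *Nupr1*, a small chromatin protein induced by stress, had 192, 248, 845 and 339 normalised counts in FL and 232, 824 and 202 in WT livers. *Atf5* had 7678, 6305, 8994 and 7568 in FL and 6167, 10455 and 5320 in WT livers. FL replicate 3 and WT replicate 2 were the 2 highest livers for both, and for none of the other 44 genes. The log2 fold changes were 0.02 and 0.11, and without these 2 livers 0.22 and 0.32. WT replicate 2 held 380% of the mean of the other WT livers for *Nupr1* and 182% for *Atf5*. *Trib3*, a pseudokinase that restrains ATF4, differed little in any liver, from 1497 to 1610 in FL and from 1450 to 1772 in WT livers.

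Amino acid enzymes of the ATF4 arm fell into steady and variable genes. *Asns*, asparagine synthetase, had 545, 648, 837 and 734 normalised counts in FL and 631, 488 and 673 in WT livers (log2 fold change 0.21 ± 0.18, exact permutation p = 0.343, or -0.031 without the 2 livers that stood apart). *Shmt2*, a mitochondrial folate enzyme, stayed between 2803 and 3274 in all 7 livers. *Psat1*, of serine synthesis, had 2197, 2086, 851 and 2142 in FL and 2563, 520 and 2503 in WT livers. *Mthfd2*, a folate enzyme like *Shmt2*, had 431, 445, 214 and 468 in FL and 500, 237 and 394 in WT livers. In both genes FL replicate 3 and WT replicate 2 were the 2 lowest livers. For *Psat1*, WT replicate 2 held 20.5% of the mean of the other WT livers and FL replicate 3 held 39.7% of the mean of the other FL livers, and its log2 fold change was 0.19 with these livers and -0.24 without them. *Chac1*, which degrades glutathione, ranged from 222 to 342 in FL and from 177 to 398 in WT livers. *Phgdh* was near the floor of this liver RNA, with 11 to 31 normalised counts, and 53.8% of the 36-base stretches of its transcripts also occur in other genes, so reads could have been divided or left uncounted.

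Transporters and tRNA synthetases had log2 fold changes from -0.17 to 0.12. *Slc3a2* and *Slc7a5* are the heavy and light chains of the same transporter of large neutral amino acids, yet they differed in spread. *Slc3a2* had 3590, 4095, 3738 and 3923 normalised counts in FL and 3887, 3472 and 3342 in WT livers (log2 fold change 0.11 ± 0.10, exact permutation p = 0.2), and its fold change was 0.10 without the 2 livers that stood apart. *Slc7a5* had 722, 795, 278 and 632 in FL and 984, 198 and 1137 in WT livers (log2 fold change -0.10 ± 0.63, or -0.57 without them). The spread within a genotype was 0.10 on the log2 scale for *Slc3a2* and 1.03 for *Slc7a5*. *Slc7a1* and the synthetases *Aars*, *Sars*, *Wars* and *Gars* were each lower in WT replicate 2 than in the other WT livers, at 48.2% (*Aars*) to 84.6% (*Gars*) of their mean, and the exons of *Aars* overlap those of *Exosc6* over 14.3% of their length on the same strand.

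**Figure D2:**
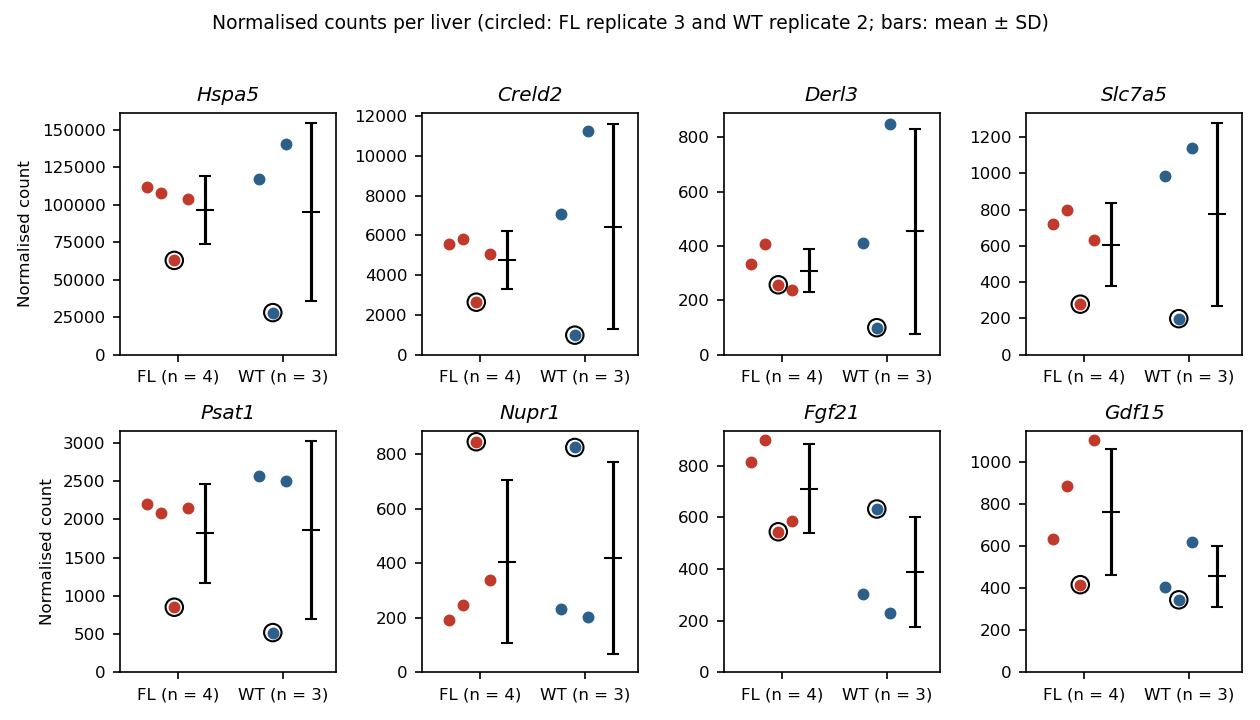
Normalised counts of 8 genes in each liver, FL in red (n = 4) and WT in blue (n = 3), with bars for the mean ± SD and circles around FL replicate 3 and WT replicate 2. These 2 livers are the lowest for *Hspa5*, *Creld2*, *Slc7a5* and *Psat1* and the highest for *Nupr1*, while for *Derl3* the lowest livers are WT replicate 2 and FL replicate 4, and for *Fgf21* WT replicate 2 lies inside the FL range.

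The ER chaperones were apart in the same 2 livers, 1 of each genotype. The FL mean divided by the WT mean ran from 0.74 (*Creld2*) to 1.08 (*Dnajb11* and *Manf*). *Hspa5* (chromosome 2, 34771970 to 34777547) had 111872, 107558, 62795 and 103797 normalised counts in FL and 117302, 27986 and 140354 in WT livers. WT replicate 2 held 21.7% of the mean of the other WT livers, and FL replicate 3 held 58.3% of the mean of the other FL livers. The mean was 96510 ± 22710 (SD, n = 4) in FL and 95210 ± 59350 (SD, n = 3) in WT livers, and the log2 fold change of 0.29 ± 0.54 (limma adjusted p = 0.999) became -0.45 without WT replicate 2 and -0.25 without FL replicate 3 as well. *Creld2* (chromosome 15, 88819646 to 88826683) had the widest spread of the 46 genes, with 5585, 5828, 2639 and 5074 in FL and 7079, 978 and 11278 in WT livers. *Dnajb9*, an Hsp40 partner of BiP, had 3374, 3482, 1545 and 2741 in FL and 884 in WT replicate 2, against 3511 and 4007 in the other WT livers (log2 fold change 0.20, or -0.24 without FL replicate 3 and WT replicate 2).

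WT replicate 2 was the lowest of the 7 livers for all 14 chaperones, where 33.9% of all genes had it lowest, and FL replicate 3 was the next lowest for 13 of them. The exception was *Pdia4*, an oxidoreductase, with 4541 in FL replicate 3 and 4513 in FL replicate 4. WT replicate 3 was the highest liver for all 14 genes. From mean log2 values, the other WT livers exceeded WT replicate 2 by a median of 2.45-fold over the chaperones and by 0.99-fold over all genes. The other FL livers exceeded FL replicate 3 by a median of 1.38-fold on that scale, against 0.99-fold over all genes. As a ratio of mean normalised counts, the excess over WT replicate 2 ran from 1.61-fold for *Calr* to 9.39-fold for *Creld2*. Log2 fold changes between genotypes ran from -0.06 (*Pdia4*) to 0.29 (*Hspa5*), with 12 above and 2 below 0 and a median of 0.09. For *Creld2*, *Hsp90b1*, *Pdia3*, *Pdia6*, *Dnajb9* and *Sdf2l1* the mean normalised count was lower in FL although the log2 fold change was above 0. Without FL replicate 3 and WT replicate 2, all 14 were below 0, from -0.70 (*Creld2*) to -0.04 (*Dnajb11*, another BiP cofactor), with a median of -0.23 beside -0.01 for all genes.

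ERAD genes and sensors shared this order in part. *Herpud1*, a membrane scaffold of ERAD (chromosome 8, 94386438 to 94395377), had 12125, 12846, 6826 and 7138 normalised counts in FL and 7513, 4011 and 9590 in WT livers (log2 fold change 0.50 ± 0.35, exact permutation p = 0.286). FL replicates 1 and 2 were above every other liver for it. Its log2 fold change was 0.14 without WT replicate 2, 0.77 without WT replicate 3 and 0.29 without FL replicate 3 and WT replicate 2. *Derl3*, a channel component abundant in secretory cells, had 334, 409, 257 and 237 in FL and 412, 99 and 850 in WT livers, and its log2 fold change of -0.11 went to 0.58 without WT replicate 3 and to -0.89 without FL replicate 3 and WT replicate 2. *Edem1*, which directs mannose-trimmed glycoproteins to degradation, kept between 2710 and 3063 in all livers and had the lowest spread of the 46 genes (0.06 on the log2 scale).

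*Xbp1* had 5778, 5324, 4678 and 5167 normalised counts in FL and 5701, 3451 and 4703 in WT livers (log2 fold change 0.21 ± 0.175, exact permutation p = 0.371). Leaving out WT replicate 2 took its log2 fold change to 0.012, leaving out WT replicate 1 to 0.37, and leaving out FL replicate 3 with WT replicate 2 to 0.07. Gene-level values cannot separate its spliced from its unspliced form. *Ern1* had 4561, 4318, 2290 and 3792 in FL and 4555, 1257 and 4528 in WT livers, and its log2 fold change of 0.29 was -0.33 without WT replicate 2 and -0.11 without FL replicate 3 as well. For *Xbp1*, *Ern1*, *Atf6* and *Eif2ak3* alike, WT replicate 2 was the lowest and FL replicate 3 the next lowest liver.

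**Figure D3:**
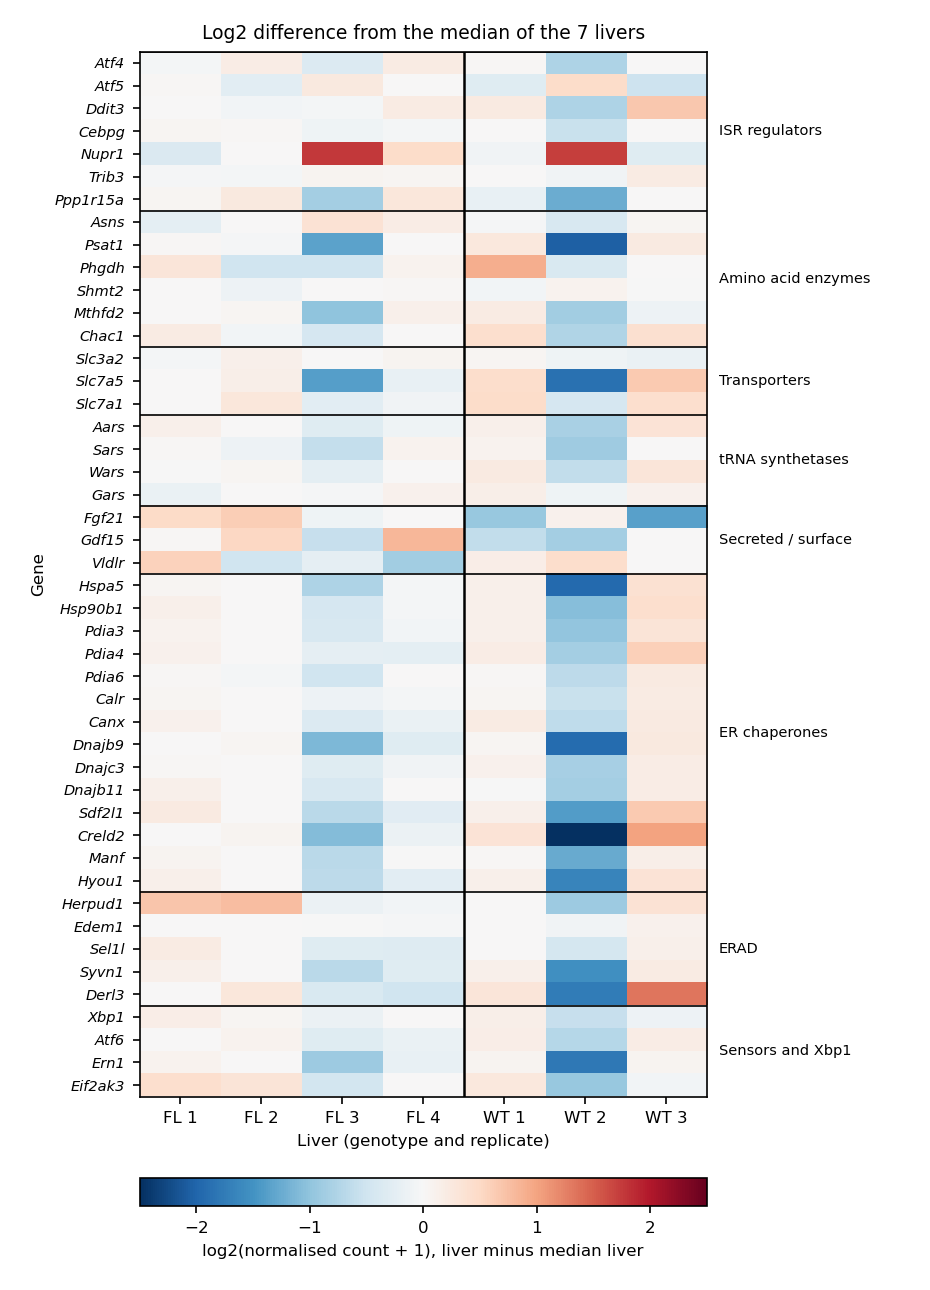
Log2(normalised count + 1) of each of the 46 genes (rows, grouped by role) in each liver (columns) minus the gene's median over the 7 livers, blue for lower and red for higher. The column of WT replicate 2 is blue in 37 rows where it is the lowest liver, FL replicate 3 is blue in ER chaperones and sensors and in *Slc7a5*, *Psat1*, *Mthfd2* and *Ppp1r15a* of the ATF4 arm, and *Nupr1* and *Atf5* are red in both.

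The contrast of the arms was taken as the mean log2 deviation of the 22 ATF4 targets in each liver from each gene's median liver, minus that of the 14 ER chaperones. For the ATF4 targets this mean was 0.05, 0.01, -0.25 and 0.05 across FL livers and 0.07, -0.45 and 0.04 across WT livers. For the ER chaperones it was 0.08, 0.01, -0.55 and -0.12 in FL and 0.12, -1.22 and 0.37 in WT livers. Both lists were lowest in WT replicate 2 and next lowest in FL replicate 3, and the chaperones were further down in each. The difference, ATF4 targets minus ER chaperones, was -0.04, 0.01, 0.30 and 0.17 in FL and -0.05, 0.77 and -0.32 in WT livers. Its mean was 0.11 in FL and 0.13 in WT livers, and the gap of -0.02 was small beside a spread of 0.38 within genotypes. Leaving out 1 liver gave gaps from -0.25 (without WT replicate 3) to 0.30 (without WT replicate 2), with the sign turned also without FL replicate 1 (0.026) or FL replicate 2 (0.011), and the gap was 0.23 without FL replicate 3 and WT replicate 2.

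By genotype, the ATF4 targets had a median log2 fold change of 0.03, with 12 above and 10 below 0. Without FL replicate 3 and WT replicate 2 the median was -0.08, with 9 above and 13 below 0. By liver, WT replicate 2 was the lowest for 13 of the 22 ATF4 targets and for 14 of the 14 ER chaperones. FL replicate 3 and WT replicate 2 were the 2 lowest livers for 10 of the 22 and for 13 of the 14. The other WT livers exceeded WT replicate 2 by a median of 1.63-fold over the ATF4 targets, beside 2.45-fold over the chaperones.

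Across all 46 genes, WT replicate 2 was the lowest liver for 37, FL replicate 3 and WT replicate 2 were the 2 lowest for 30, and the same 2 were the highest for 2. The 46 genes together took 0.993% of the normalised counts in WT replicate 2 and 1.36% in FL replicate 3, against 1.75% to 2.40% in the remaining livers. Without these 2 livers, 16 of the 46 genes had an unadjusted p-value under 0.05 in limma, where 9.74% of all genes did, 4 higher and 12 lower in FL. Those higher were *Fgf21*, *Gdf15*, *Ppp1r15a* and *Atf5*, all of the ATF4 arm. *Ddit3*, *Psat1*, *Chac1*, *Slc7a5*, *Slc7a1* and *Wars* of the ATF4 arm and *Creld2*, *Pdia3*, *Pdia4*, *Canx*, *Sdf2l1* and *Derl3* of the ER arm were lower. Leaving out WT replicate 2 alone gave 10 such genes, where 5.97% of all genes passed. In both settings WT replicates 1 and 3 were the only WT livers left. The livers left out were chosen with results known and were the 2 lowest for 30 of the 46 genes. Their absence narrows the spread of such genes, as for *Slc7a5*, whose standard error went from 0.63 to 0.12 without both. These counts are therefore a description and no separate support for a genotype difference.

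**Figure D4:**
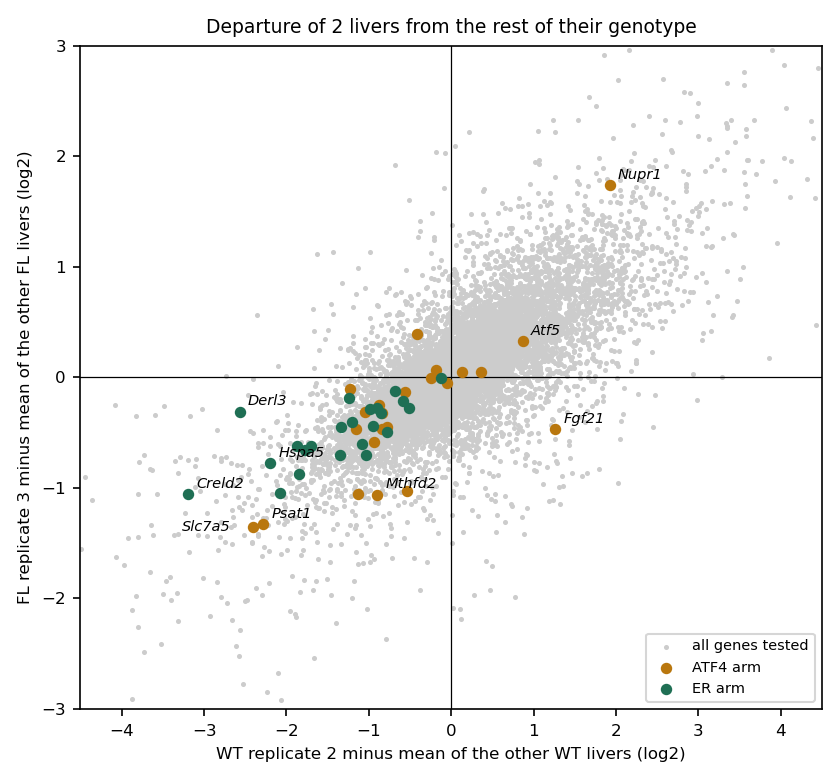
Log2 difference of WT replicate 2 from the mean of the other WT livers (horizontal axis) and of FL replicate 3 from the mean of the other FL livers (vertical axis), for all genes tested (grey), the ATF4 arm (orange) and the ER arm (green). The ER arm lies in the lower left, *Creld2* and *Derl3* farthest to the left, *Nupr1* and *Atf5* lie in the upper right, *Fgf21* lies to the lower right, and 48 genes lie outside the axes.

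Markers of liver cell types also differed in these 2 livers, and their part in the values above was not tested. All 8 hepatocyte markers, such as *Alb* and *Apoa1*, were present, with a summed level of 1440104 to 1942977 in FL and 1235150 to 1507911 in WT livers. The sum was highest of its genotype in WT replicate 2 and in FL replicate 3. By gene, WT replicate 2 was the lowest liver for 4 of these 8 markers and the highest for 0. The 6 pericentral hepatocyte markers found, such as *Glul* and *Cyp2e1*, summed to 12621 in WT replicate 2 and 21333 in FL replicate 3 and to 45268 to 69752 in the other livers, and WT replicate 2 was the lowest liver for 5 of the 6. Of the 10 macrophage markers, all 10 were highest in WT replicate 2, with a sum of 14128 there, 8687 in FL replicate 3 and 5502 to 6624 elsewhere. All 8 stellate cell markers were highest in WT replicate 2 (12307 in sum, against 3137 to 4561). The 6 periportal hepatocyte markers summed to 107544 in WT replicate 2 and 114168 in FL replicate 3 and to 55980 to 79346 elsewhere. Of these 6, WT replicate 2 was the highest liver for 4 and the lowest for 1. Markers of cycling cells summed to 1450 in WT replicate 2 and 420 in FL replicate 3, against 147 to 214 in the other livers. Of 8 pancreatic acinar genes, 2 were in the table (112 to 245 in FL, 129 to 156 in WT livers). Of the markers found, 0 were under 3 normalised counts in every liver.

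The promoter elements shown above were set beside the level of WT replicate 2, as a description. The 10 genes with an ERSE or ERSE-II and no CARE, all of the ER arm, had 10.7% to 62.0% of the mean of the other WT livers there, with a median of 44.9%. The 8 genes with a CARE alone, all of the ATF4 arm, had 44.9% to 380%, with a median of 86.1%. *Herpud1*, the member with both kinds, had 46.9%. The 22 genes with a promoter but none of these elements spanned 20.5% to 182% with a median of 52.7%, so low values in this liver were not particular to genes with an ERSE. Among CARE genes the range ran from *Chac1* at 44.9% and *Aars* at 48.2% to *Fgf21* at 237% and *Nupr1* at 380%, all of which carry the same 8 letters.

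**Figure D5:**
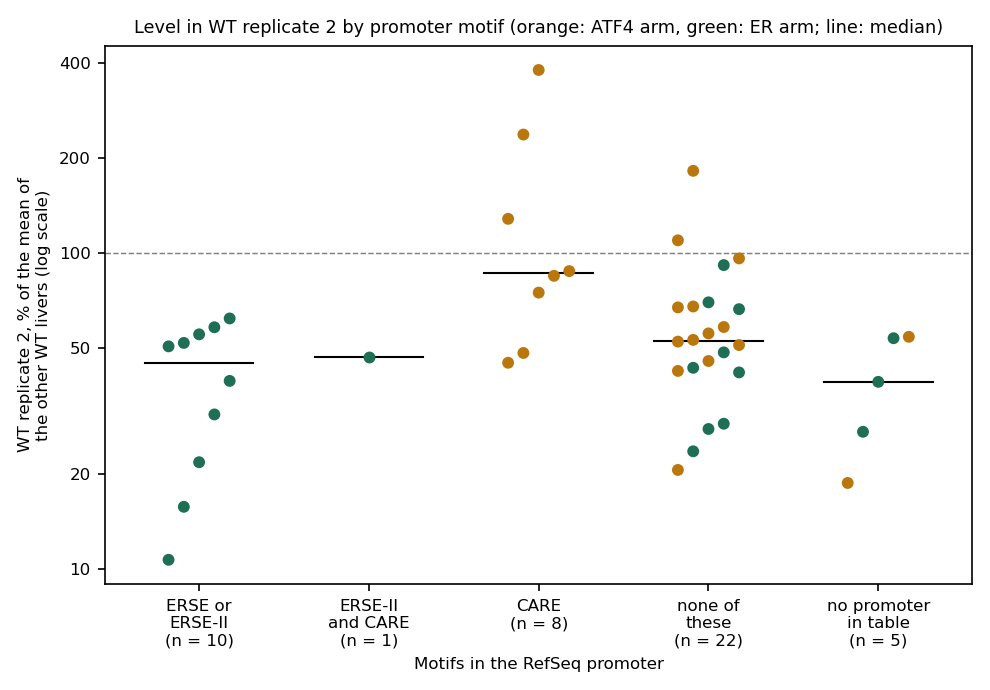
Level of WT replicate 2 as a percentage of the mean of the other WT livers (vertical, log scale) for the 46 genes, grouped by the elements found in their RefSeq promoter, with ATF4-arm genes in orange, ER-arm genes in green and a line at the median. Every gene with an ERSE or ERSE-II lies under 100%, CARE genes lie on both sides of it, and genes with none of these elements overlap both groups.

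Other genes of the pathways were compared in the same fit. Of 83 further genes in the table, 82 could be tested, and 0 passed an adjusted p-value of 0.05 in limma, while 3 had an unadjusted p-value under 0.05, where 3.2% of all genes did. Without FL replicate 3 and WT replicate 2, 0 again passed in limma and the count at an unadjusted p under 0.05 was 11, beside 9.74% of all genes, 6 higher and 5 lower in FL. None of the 11 genes around eIF2 alpha (its other kinases, the eIF2B subunits and a phosphatase adaptor) were among the 3, and the smallest p belonged to *Eif2b4* (1443, 1379, 1226 and 1526 in FL, 1290, 1042 and 1345 in WT livers). Its log2 fold change was 0.19, and 0.14 without the 2 livers. *Eif2ak2*, the kinase PKR, had 235, 251, 269 and 305 in FL and 249, 224 and 235 in WT livers (0.16, and 0.11 without the 2 livers). *Eif2b5* had 1331, 1155, 1186 and 1232 in FL and 1232, 1024 and 1208 in WT livers (0.09, and 0.02 without the 2 livers). Of 27 further ATF4-arm genes, 1 was higher and 2 were lower in FL livers at an unadjusted p under 0.05 in limma, beside 3.2% of all genes. Without the 2 livers these were 4 and 3, beside 9.74% of all genes.

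*Slc7a11*, the cystine importer that supplies glutathione synthesis, had 209, 435, 488 and 211 normalised counts in FL and 483, 660 and 851 in WT livers (log2 fold change -1.06 ± 0.36, limma adjusted p = 0.999, or -1.26 without the 2 livers). FL replicate 3 (488) overlapped WT replicate 1 (483), and all remaining FL livers lay below all WT livers. *Cebpb*, a leucine zipper factor of the acute phase, had 3958, 4934, 2188 and 3774 in FL and 2330, 1259 and 2690 in WT livers. Its log2 fold change was 0.84 ± 0.33 with all livers (limma adjusted p = 0.999) and 0.74 without the 2 livers (limma adjusted p = 0.124). *Aldh18a1*, of proline synthesis, had 250, 263, 274 and 316 in FL and 377, 301 and 388 in WT livers (log2 fold change -0.36 ± 0.14, or -0.47 without the 2 livers).

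Of 44 further ER genes, 2 were higher and 2 lower in FL with no overlap between genotypes, beside 2.77% and 1.98% of all genes. In limma, 0 of the 44 had an unadjusted p-value under 0.05, where 3.2% of all genes did. Without the 2 livers 4 of them did, beside 9.74% of all genes. *Creb3*, an ER-bound transcription factor, had 1066, 1172, 1066 and 1196 in FL and 1014, 1063 and 958 in WT livers (log2 fold change 0.15, or 0.21 without the 2 livers). *Derl2*, a channel component of ERAD, had 1279, 1368, 1286 and 1258 in FL and 1244, 1015 and 1219 in WT livers (0.17, or 0.08). *Spcs1*, of the signal peptidase, had 544, 540, 604 and 628 in FL and 651, 665 and 677 in WT livers (-0.20, or -0.22), and *Dnajc10*, an ER reductase, was the other gene lower in FL. WT replicate 2 was the lowest liver for 30 of these 44 genes and for 14 of the 27 further ATF4-arm genes, beside 33.9% of all genes.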

How the data were processed

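Polyadenylated liver RNA of 4 FL and 3 WT mice was read from both ends in stranded libraries. Per the methods and the submitters' processing notes, reads were aligned with Tophat 2.0.13 and Bowtie 2.2.6.0 to the mouse genome and annotation of Ensembl release 75 (written there with a human build name) and, after counting, normalised with DESeq2 in R 3.4.2. For the counting, the methods name HTSeq. The deposited values were normalised counts that the authors rounded to whole numbers, treated here as a score because they are not raw counts, so no count test was run. The reads behind each value are not known, and no counting interval is given. The table held 14988 rows for 14851 identifiers, of which 120 stood on more than 1 row with identical values and were kept at 1 row each. GENCODE vM21 (GRCm38) gave symbols for 14839, and 0 columns of samples were left unused.

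Genotypes were compared with limma 3.58.1 in R 4.3.3 (lmFit, then eBayes with trend) after log2(normalised count + 1), keeping those with a mean of 10 or more, with a Benjamini-Hochberg threshold of 0.05. Fold changes on this scale understate changes of low genes. Permutation tests were exact and two-sided, over 35 splits. The fit was first tested on simulated data with known changes. Their spread came from the livers other than FL replicate 3 and WT replicate 2, and the changes were larger than any log2 fold change of the 46 genes. That test therefore cannot show whether smaller changes would be found at the spread of all 7 livers. Elements, 36-base stretches and figures came from Python 3.11.15, pandas 2.3.3, NumPy 2.4.6 and Matplotlib 3.10.9.

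The 46 genes, the gene lists and the exclusion of FL replicate 3 and WT replicate 2 were chosen with earlier results of these data known. Genes given in every liver were members past the threshold or without overlap between genotypes, the 10 members with the smallest p, *Atf4*, *Ddit3*, *Hspa5* and *Xbp1*, the 8 members with the largest spread, and the 3 smallest p in each further list. Others named were chosen after their values were seen. Alternatives were pseudocounts of 0.5 and 5, no filter or a mean of at least 50, quantile normalisation, equal totals, no trend, a robust eBayes, a replicate block, and leaving livers out. Replicates are separate mice.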

Additional observations from a re-analysis of the deposited data

Results flagged for a closer look

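Among 49 sets of 4 FL values examined with Dixon's test (the 46 genes and the mean deviations of gene lists), 6 held a liver whose gap to the nearest other was above the critical share of the range for 4 values. Chance gives about 1 in 20, or 2.45 of 49, and the values within a liver are not independent. FL replicate 3 was the liver in 5 of the 6. Its *Hspa5* level was 62795 normalised counts where the other FL livers had 103797 to 111872, and its *Manf* level, an ER-resident trophic factor, was 2980 where they had 4736 to 5021. *Psat1* had 851 in FL replicate 3, against 2086 to 2197, and *Mthfd2* had 214, against 431 to 468. The mean log2 deviation of the ATF4 targets was -0.25 in FL replicate 3 and 0.01 to 0.05 in the others. *Shmt2* was the remaining gene, with 2803 in FL replicate 2 and 3069 to 3123 in the other FL livers.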

How the results depend on the processing

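The count of 0 members past the adjusted threshold held under 16 of 17 alternatives, and when livers were left out it ranged from 0 to 1, the 1 being *Fgf21* without FL replicate 3 and WT replicate 2. No further pathway gene passed in any alternative (adjusted p-values of limma from 0.124 upward). Of 28 named genes, 14 changed sign somewhere, and the cause was not tested. Scaling to equal totals moved the median of all genes from 0.01 to -0.10 and gave log2 fold changes of -0.0051 for *Slc3a2*, -0.015 for *Creld2*, -0.095 for *Nupr1* and -0.022 for *Eif2b5*, each still above that median. Quantile normalisation gave -0.019 for *Nupr1*. When livers were left out, the ranges were -0.031 to 0.31 for *Asns*, -0.017 to 0.38 for *Atf4*, -0.029 to 0.26 for *Cebpg*, -0.43 to 0.29 for *Ddit3*, -0.45 to 0.72 for *Hspa5*, -0.97 to 0.80 for *Creld2*, -0.91 to 0.35 for *Slc7a5*, -0.97 to 0.58 for *Derl3*, -0.42 to 0.66 for *Nupr1*, -0.57 to 0.57 for *Psat1*, -0.50 to 0.59 for *Dnajb9* and -0.33 to 0.60 for *Ern1*. The median of the ER chaperones ranged from -0.34 to 0.38 and that of the ATF4 targets from -0.17 to 0.13, with both lowest without WT replicate 2. The gap between these lists also turned sign under quantile normalisation (0.05). The named genes that kept their sign when livers were left out still moved, among them *Xbp1* (0.012 to 0.37) and *Ppp1r15a* (0.031 to 0.67).

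Replicates 1 to 3 carry the same numbers in both genotypes but are different mice. Across genes, deviations from the group means correlated at 0.44, -0.48 and -0.66 for numbers 1, 2 and 3. FL replicate 3 and WT replicate 2 carry different numbers and often stood apart in the same direction, which shapes all of these values. They therefore cannot show whether the numbers paired the livers. With the number as a block, a fit that leaves FL replicate 4 no weight, 0 members passed, the log2 fold change of *Derl3* was 0.00395 and that of *Fgf21* was 1.06.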
